A study of Mus musculus with 15 samples.

Results

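The enzymes described here are those with which cells oxidise, conjugate and clear foreign compounds and dispose of reactive oxygen species. They were taken by gene name from all genes on a mouse expression array: the cytochromes P450 of families 1 to 4, the cytosolic glutathione S-transferases, the aldehyde dehydrogenases, the aldo-keto reductases of family 1, the peroxiredoxins, the glutathione peroxidases, and a set of named genes (Nqo1, Gclc, Gclm, Gsr, Txnrd1, Srxn1, Sod1, Sod2, Sod3, Cat, Nfe2l2 and Keap1). The rule found 148 genes of 22008 with a symbol. They carry 160 of the 35556 transcript clusters, the array's units of measurement, because 10 genes have several clusters. Such a gene was followed by its cluster with the highest mean over all tumours, and no other measured value entered the choice.

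RNA came from 15 whole primary tumours, 3 of each of 5 transplanted mouse mammary carcinoma lines, 1 Affymetrix Mouse Gene 1.0 ST array per tumour. EO771.LMB, labelled metastatic, was grown from a lung nodule of mCherry-marked EO771 cells. Its parent EO771, labelled non-metastatic, stems from a spontaneous mammary tumour of a C57BL/6 mouse. Both were grown in C57BL/6 females. EMT6.5 (metastatic), 4T1.2 (metastatic) and 67NR (non-metastatic) were grown in BALB/c females. EMT6.5 is a single-cell clone of EMT6 and 4T1.2 one of 4T1, while 4T1 and 67NR are subpopulations of a single mammary tumour. Per the labels, the tumours grew in the inguinal mammary fat pad of mice of 6 to 8 weeks, and no treatment is given for any group. Each type is therefore 1 line in 3 mice, and the tumours hold host cells beside the carcinoma cells.

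Phase 1 enzymes such as the cytochromes P450 put an oxygen on a foreign compound, and aldehyde dehydrogenases and aldo-keto reductases then deal with reactive carbonyls. Phase 2 enzymes such as the glutathione S-transferases attach a soluble group, here the tripeptide glutathione. The transcription factor NRF2 (Nfe2l2), which KEAP1 holds at a low level, drives many of these genes together with those for glutathione synthesis and reduction (Gclc, Gclm, Gsr), while the aryl hydrocarbon receptor (Ahr) drives the Cyp1 genes. Superoxide dismutases, catalase, glutathione peroxidases and peroxiredoxins remove superoxide and peroxides.

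NRF2 binds the antioxidant response element, written in its core form as TGACNNNGC. To show what the element looks like in these genes, the stretch around a match upstream of the start is printed for the 6 genes of the naming rule that have one, 5′ to 3′ on the gene's strand, from RefSeq promoters (GRCm38.p6), with the 9 letters of the match in capitals and 10 bases on either side. Aldh1a2 (chr9:71215667-71215695, + strand), Gstm5 (chr3:107895802-107895830, + strand) and Nfe2l2 (chr2:75704885-75704913, - strand) carry the forward form, and Gclm (chr3:122245413-122245441, + strand), Sod1 (chr16:90220696-90220724, + strand) and Txnrd1 (chr10:82859104-82859132, + strand) the reverse complement GCNNNGTCA.
Gclm: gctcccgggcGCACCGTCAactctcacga
Txnrd1: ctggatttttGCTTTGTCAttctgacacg
Gstm5: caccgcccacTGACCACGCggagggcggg
Aldh1a2: gccgcggactTGACCGTGCgggcgccgcg
Sod1: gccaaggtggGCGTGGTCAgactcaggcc
Nfe2l2: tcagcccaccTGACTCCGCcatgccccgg
Promoters of 250 bases before to 50 after the start were found for 123 of the 148 genes, 144 promoters in all. Searched on both strands, TGACNNNGC stood in 12.5% of them and in 12.4% of all 32851 promoters of that length. The aryl hydrocarbon receptor's core, written TNGCGTG, stood in 3.47% of them and in 5.07% of all. A match is a run of letters and not a shown binding site, and an element outside this window was not looked for.

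Signals are given on the log2 scale of the deposited values, where 1 unit is a doubling, and are compared between tumours and not between genes. The median cluster had a mean of 6.40, and no detection call was used, so a low signal cannot be told apart from none. A difference from signals near or below that median is given as the log2 difference of the measured signals, with no fold. Correlations across clusters were 0.983 to 0.989 within types and 0.920 to 0.989 between types. EMT6.5 tumours 1 and 3 stood apart in skeletal muscle genes. The mean deviation of a list of 20 muscle genes from its 15-tumour mean was 1.43, -0.22 and 2.06 in EMT6.5 tumours 1, 2 and 3 and lay between -0.46 and -0.12 in all other tumours. The comparisons that use EMT6.5 were therefore repeated for the enzyme genes with tumour 2 as its only tumour. How many calls were kept is given only for EMT6.5 against 4T1.2 and 67NR. Counts and genes of the other lists are given with all EMT6.5 tumours, so the part of tumours 1 and 3 in them was not tested. Of the defining epithelial markers, Krt8 was bright in all tumours (9.60 to 10.88), while Epcam (5.10 to 6.76) and Cdh1 (5.47 to 6.91) lay near or below the median cluster. Krt18 had 7.90 to 8.19 in the 6 tumours of the EO771 lines, 9.37 to 10.14 in EMT6.5, 10.18 to 10.6 in 4T1.2 and 6.12 to 6.98 in 67NR.

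Of the 148 genes, 65 (43.9%) differed among the 5 types by limma's moderated F at an adjusted p under 0.05, against 43.1% of all clusters. Clusters with a symbol differed in 48.6%. Among the brighter genes the shares lay further apart, since 83.3% of the 48 members above the median signal differed, against 63.3% of all clusters above it. Among the dimmer members 25% differed, against 23% of such clusters. The type means spanned over 1 log2 unit in 36 genes, over 2 in 14 and over 4 in 4, which were Gsta4, Cyp1b1, Gstm1 and Gstm2. Of the 65 genes, 11 were highest in EO771.LMB, 10 in EO771, 18 in EMT6.5, 10 in 4T1.2 and 16 in 67NR. The lowest mean lay in EO771.LMB for 22, in EO771 for 8, in EMT6.5 for 6, in 4T1.2 for 14 and in 67NR for 15. Of all 35556 clusters, differing or not, 6661, 5188, 6444, 10370 and 6893 were highest in these types, in the same order. The lowest mean lay there for 7449, 7822, 6451, 5915 and 7919. No member passed between EO771.LMB and EO771, so the split between these 2 lines only ranks means.

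**Figure D1:**
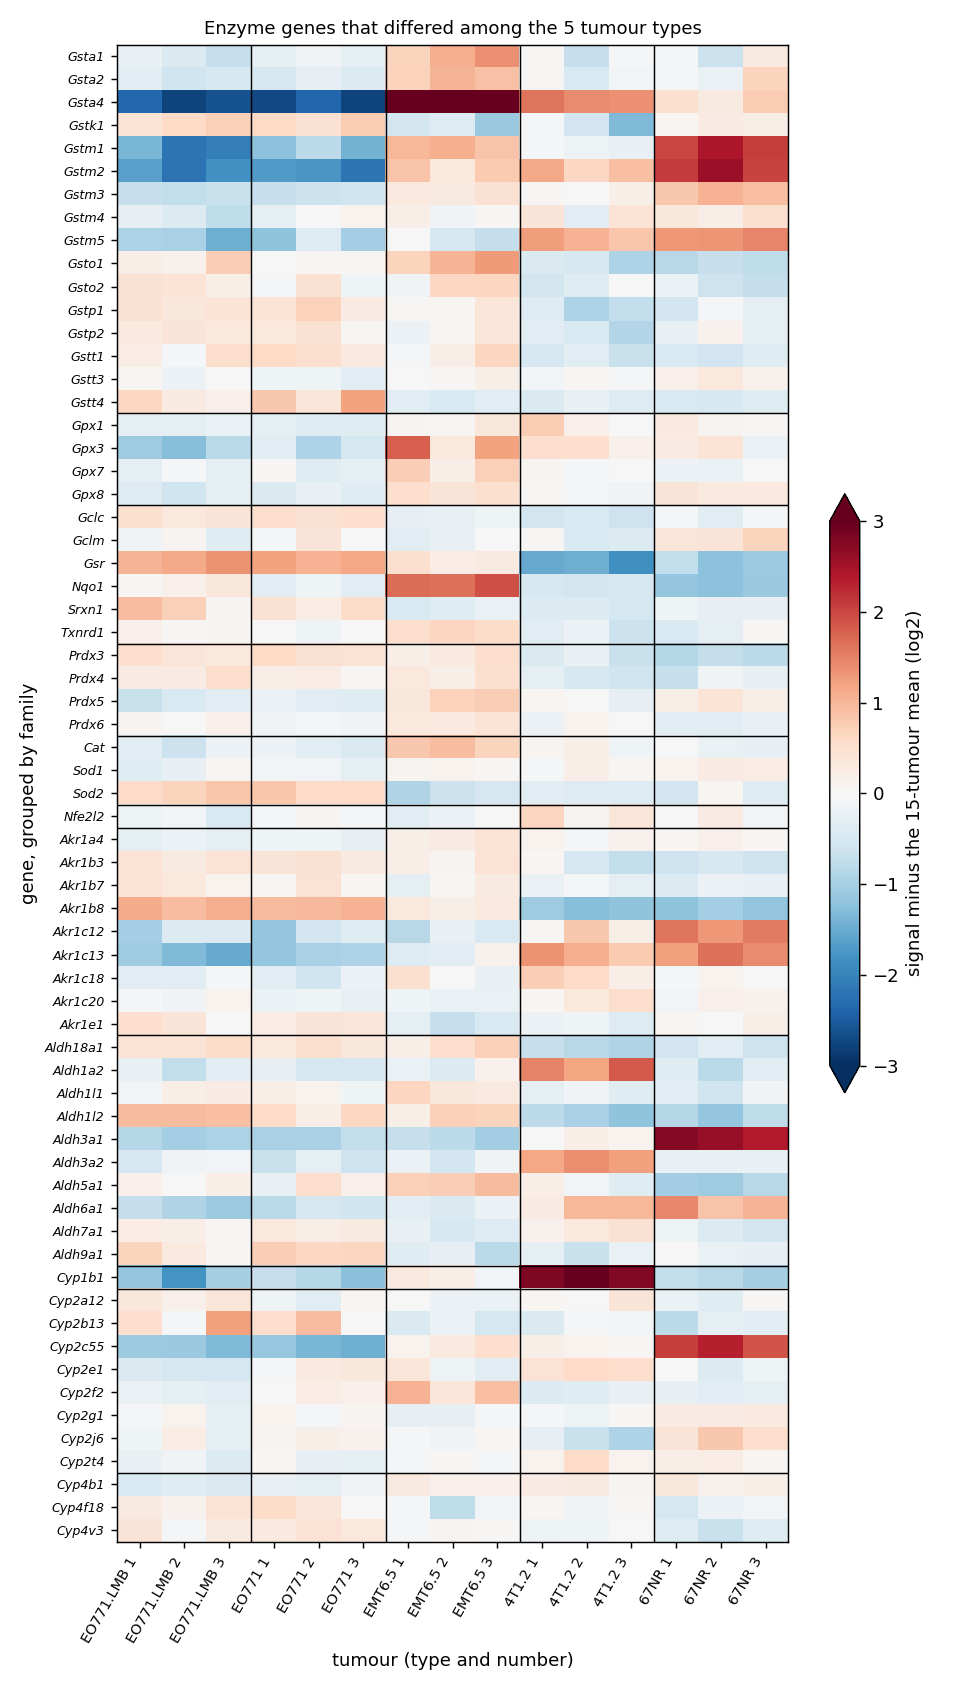
Signal minus the gene's 15-tumour mean (colour, log2, red higher, drawn up to 3 units either way) for the 65 genes that differed among the types, grouped by family, with 1 column per tumour. Gsta4 is deepest blue in the EO771.LMB and EO771 tumours and reddest in EMT6.5, Cyp1b1 stands out in 4T1.2, and Aldh3a1 and Cyp2c55 in 67NR.

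The families differed in how many members had a mean above the median cluster, which is not a detection call. All 6 peroxiredoxins, with means of 8.39 to 11.34, and all 6 of Nqo1, Gclc, Gclm, Gsr, Txnrd1 and Srxn1 were above the median cluster. Of the cytochromes P450, 6 of 69 were, 1 in Cyp1, 2 in Cyp2, 0 in Cyp3 and 3 in Cyp4. Differences among the types were found in 6 of 6 genes of the Nqo1 to Srxn1 set (100%), 16 of 20 glutathione S-transferases (80%) and 4 of 6 peroxiredoxins (66.7%). They were found in 9 of 14 aldo-keto reductases (64.3%), 10 of 19 aldehyde dehydrogenases (52.6%), 4 of 8 glutathione peroxidases (50%) and 12 of 69 cytochromes P450 (17.4%). Of all clusters 43.1% differed, and of those above the median signal 63.3%. Many of these cytochromes are best known from liver, and the mean deviation of 20 hepatocyte genes lay between -0.14 and 0.20 in every tumour. That deviation is taken from each gene's own mean over all tumours. It therefore compares tumours with each other and cannot show whether liver genes were expressed.

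The comparisons were 4T1.2 with 67NR and EO771.LMB with EO771, a metastatic line with a non-metastatic relative in each case, both EO771 lines with the 3 BALB/c-grown lines, and EMT6.5 with the other BALB/c-grown lines. In 4T1.2 tumours 9 members were higher and 15 lower (6.08% and 10.1% of the 148 genes) than in 67NR, against 8.69% of all clusters higher and 9.12% lower. Between EO771.LMB and EO771, 0 members passed in either direction, where 0% of clusters were higher and 0.0197% lower. In the EO771 lines 24 members were higher and 32 lower (16.2% and 21.6% of the 148 genes) than in the BALB/c-grown lines, against 18.9% of clusters higher and 19.3% lower. In EMT6.5, 25 were higher and 13 lower (16.9% and 8.78%) than in 4T1.2 and 67NR, against 9.59% of clusters higher and 8.33% lower. With EMT6.5 tumour 2 alone, a fit in which that tumour is assumed to vary like the other types, 16 of the 25 and 8 of the 13 still passed. The line, the strain it arose in and the host strain cannot be told apart in the comparison of the EO771 lines with the BALB/c-grown lines. In whole tumours, fewer cells of a type and less RNA per cell cannot be told apart either.

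**Figure D2:**
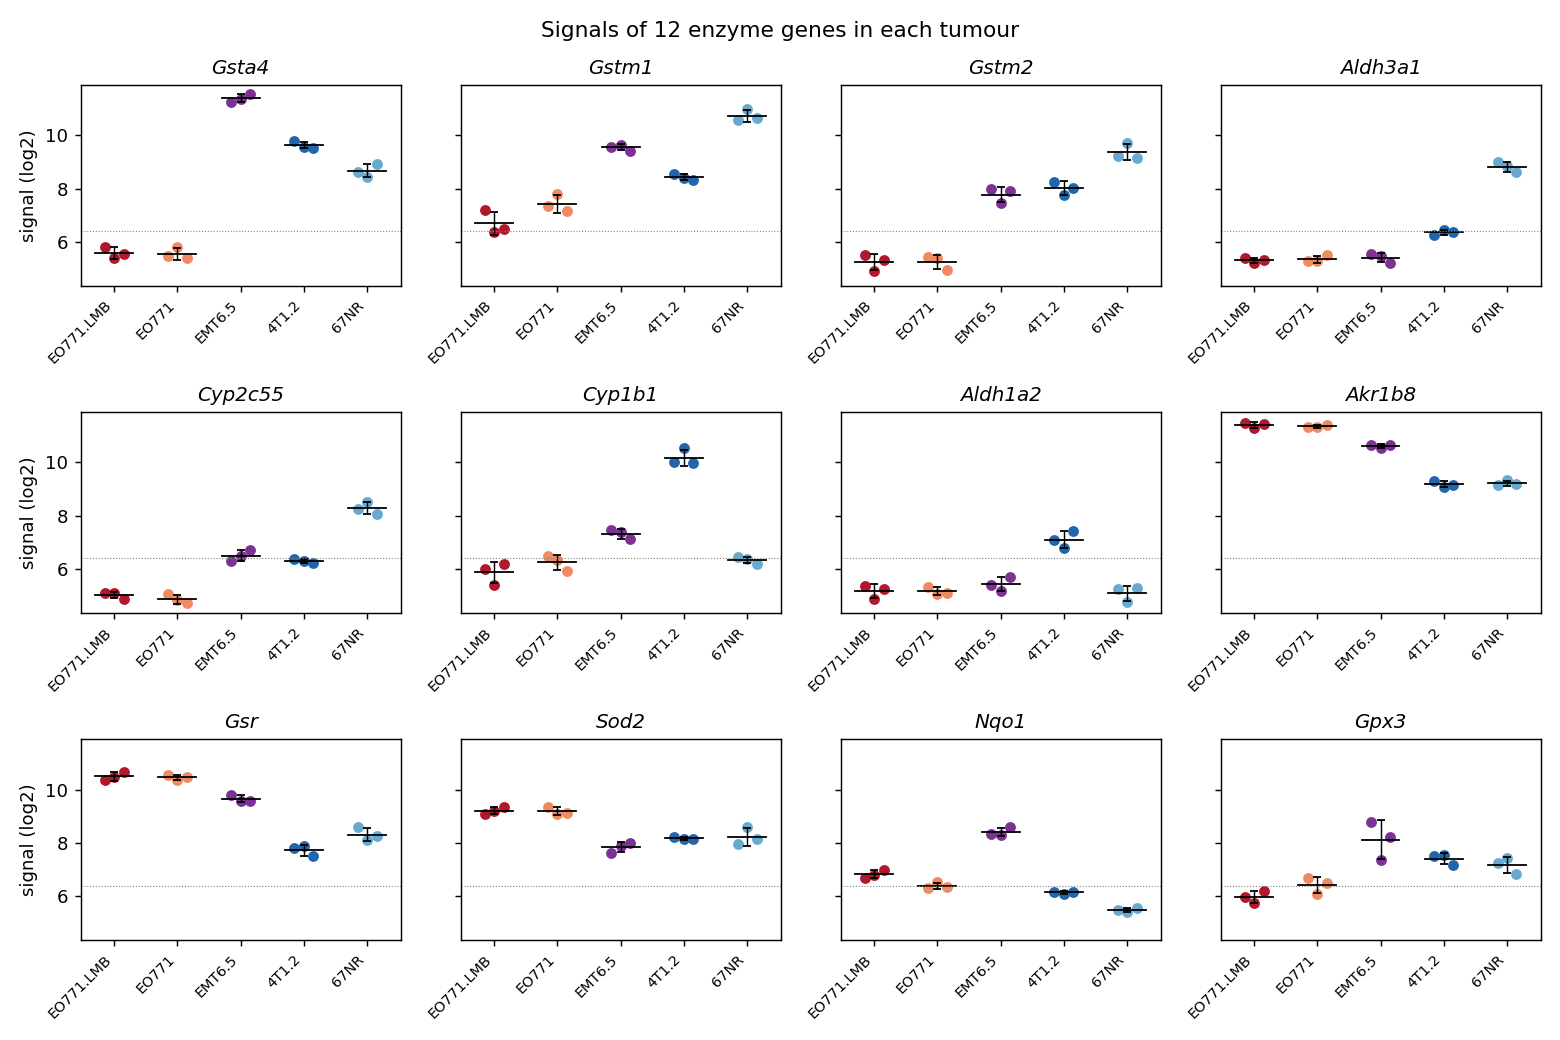
Log2 signal of 12 of the genes in each tumour (points), with the mean (line) and SD (bars) of the 3 tumours of each type; the dotted line is the median cluster at 6.40. Gsta4 spans 5.38 to 11.55, Cyp1b1 is above 9.9 in the 4T1.2 tumours and at most 7.48 elsewhere, and Aldh3a1 is above 8.6 in the 67NR tumours and at most 6.46 elsewhere.

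Of the 20 glutathione S-transferases, 6 were higher and 10 lower in the EO771 lines (30% and 50%, against 18.9% and 19.3% of all clusters). The lower ones were 3 of 4 alpha genes, 6 of 7 mu genes and 1 of 4 theta genes, and both pi genes were among the higher. Gsta4, which conjugates 4-hydroxynonenal from lipid peroxidation, had signals of 5.81, 5.39 and 5.54 in EO771.LMB tumours and of 5.46, 5.79 and 5.38 in EO771 tumours. In EMT6.5 tumours it had 11.26, 11.38 and 11.55, in 4T1.2 tumours 9.77, 9.58 and 9.54, and in 67NR tumours 8.64, 8.44 and 8.93. The 6 tumours of the EO771 lines were thus below the median cluster and the 9 others well above it, and EMT6.5, 4T1.2 and 67NR did not overlap with each other. The EO771 lines were lower by a log2 difference of -4.34 ± 0.10 (SE, adjusted p = 2.9e-13). Gsta4 was also higher in EMT6.5 than in 4T1.2 and 67NR (2.25 ± 0.13, adjusted p = 3e-08) and higher in 4T1.2 than in 67NR (0.96 ± 0.15, adjusted p = 0.00046).

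The mu class, which conjugates aromatic electrophiles, had its highest type mean in 67NR in 6 of 7 genes. Gstm1 had 7.20, 6.37 and 6.5 in EO771.LMB tumours, 7.33, 7.78 and 7.15 in EO771 tumours, 9.57, 9.64 and 9.42 in EMT6.5 tumours, 8.54, 8.41 and 8.34 in 4T1.2 tumours and 10.58, 11 and 10.64 in 67NR tumours. Gstm2 had 5.49, 4.90 and 5.30 in EO771.LMB tumours, 5.43, 5.38 and 4.93 in EO771 tumours, 7.98, 7.45 and 7.90 in EMT6.5 tumours, 8.26, 7.74 and 8.03 in 4T1.2 tumours and 9.22, 9.70 and 9.16 in 67NR tumours. In both genes the 67NR tumours lay above all other tumours and the EO771 lines below all others. Both fell in 4T1.2 against 67NR, Gstm1 by a difference of -2.31 ± 0.20 (adjusted p = 1.5e-06) and Gstm2 by -1.35 ± 0.21 (adjusted p = 0.00034). Against the BALB/c-grown lines, 6 of 7 mu genes were lower in the EO771 lines (85.7%, against 19.3% of all clusters). Gstm2 differed by a log2 difference of -3.14 ± 0.14 (adjusted p = 1.5e-10), Gstm1 by -2.51 ± 0.13 (adjusted p = 1.2e-09) and Gstm5 by -1.67 ± 0.14 (adjusted p = 2.4e-07). The calls of Gstm4 and Gstm6 were lost with EMT6.5 tumour 2 alone (adjusted p = 0.063 and 0.14), and Gstm7 did not pass (-0.26, adjusted p = 0.079). Gstm5 lay above the median cluster only in 4T1.2 (7.63, 7.41 and 7.21) and 67NR (7.68, 7.69 and 7.84) and fell in EMT6.5 against these lines (-1.62 ± 0.19, adjusted p = 2.9e-05).

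Members of a class are near copies of each other, and probes for one can take up RNA of another, so the value of a single gene of a class is uncertain. The brightest cluster of Gstm3 fell in 4T1.2 against 67NR (-0.85) and in the EO771 lines (-1.12), while its other cluster did neither (0.17 and -0.08, adjusted p = 0.51 and 0.56). The alpha genes Gsta1 and Gsta2 were dim, and both were lower in the EO771 lines (-0.55 and -0.71) and higher in EMT6.5 (1.23 and 0.87). For Gsta1 the type means were 5.37 in EO771.LMB, 5.60 in EO771, 6.86 in EMT6.5, 5.58 in 4T1.2 and 5.68 in 67NR, so that EMT6.5 alone stood apart. Gsta3 did not pass in the EO771 lines (-0.18, adjusted p = 0.25).

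The higher genes of the EO771 lines belonged to other classes. Gstp1, the pi enzyme, was higher in the EO771 lines (0.71, adjusted p = 8.9e-05), as was Gstk1, the kappa enzyme of mitochondria and peroxisomes (0.98 ± 0.16, adjusted p = 0.00019). Gstk1 had 6.76, 6.95 and 7.06 in EO771.LMB, 6.96, 6.82 and 7.11 in EO771, 5.80, 5.96 and 5.24 in EMT6.5, 6.30, 5.78 and 5.03 in 4T1.2 and 6.42, 6.59 and 6.55 in 67NR. Its lower signal in 4T1.2 than in 67NR (-0.81, adjusted p = 0.037) lost its call without 4T1.2 tumour 2 or 3 or any of the 67NR tumours, and was -0.48 (adjusted p = 0.15) without 4T1.2 tumour 3. The theta gene Gstt4 was above 5.7 in all 6 tumours of the EO771 lines and at most 5.41 in the 9 others (0.95 ± 0.11, adjusted p = 8.3e-06). Of the other theta genes, Gstt1 was higher in the EO771 lines (0.58, adjusted p = 0.00086), Gstt2 did not pass (-0.06, adjusted p = 0.66) and Gstt3 was lower (-0.20, adjusted p = 0.025), a call lost with EMT6.5 tumour 2 alone (adjusted p = 0.086). Gsto1, an omega transferase that reduces dehydroascorbate, was higher in EMT6.5 (9.14, 9.48 and 9.74) than in 4T1.2 (8.03, 7.98 and 7.54) and 67NR (7.62, 7.78 and 7.71), a difference of 1.68 ± 0.15 (adjusted p = 3e-06). In the EO771 lines Gsto1 was higher by 0.32 than the mean of the BALB/c-grown lines (adjusted p = 0.044), a call lost with EMT6.5 tumour 2 alone (0.31). Its type means of 8.82 in EO771.LMB and 8.48 in EO771 lay below that of EMT6.5 (9.45) and above that of 4T1.2 (7.85). Gsto2 did not pass (0.37, adjusted p = 0.058).

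**Figure D3:**
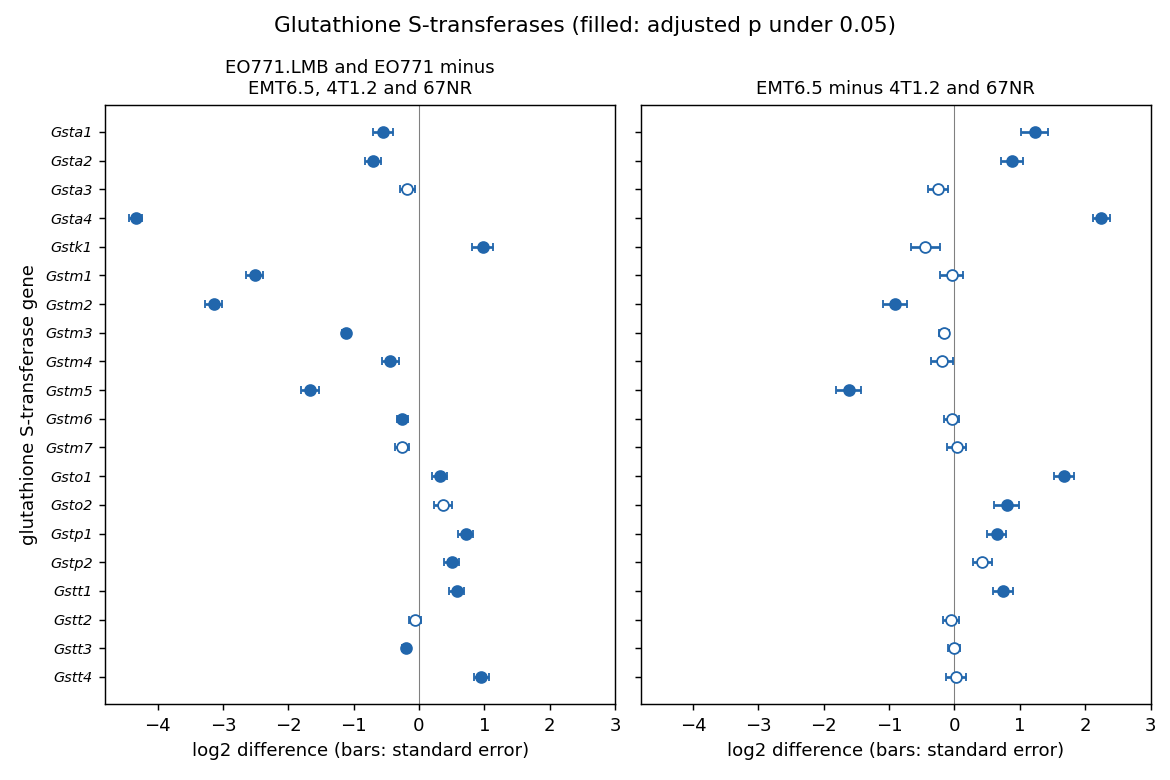
Log2 differences with their standard errors (bars) for all 20 glutathione S-transferase genes: left, EO771.LMB and EO771 minus EMT6.5, 4T1.2 and 67NR; right, EMT6.5 minus 4T1.2 and 67NR; filled points passed an adjusted p of 0.05. Gsta4 is the lowest gene on the left, at -4.34, and the highest on the right, at 2.25.

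Host cell markers moved with these differences. The lists used here were chosen with earlier results of these data known. Of all clusters, 18.9% were higher and 19.3% lower in the EO771 lines. In EMT6.5 these shares were 9.59% and 8.33%, and in 4T1.2 against 67NR 8.69% and 9.12%. Of 19 macrophage genes, 15 (78.9%) were lower in the EO771 lines than in the BALB/c-grown lines. The list's mean deviation was -0.88 to -0.71 in EO771.LMB and -0.71 to -0.50 in EO771. It was -0.09 to 0.09 in EMT6.5, 0.37 to 0.56 in 4T1.2 and 0.79 to 1.04 in 67NR. Of the same 19 genes, 7 (36.8%) were lower in 4T1.2 than in 67NR and 15 (78.9%) lower in EMT6.5 than in 4T1.2 and 67NR. Of 20 fibroblast genes, 13 (65%) were lower in the EO771 lines, with deviations of -0.48 to -0.40 in EO771.LMB and -0.54 to -0.35 in EO771. The deviations were 0.36 to 0.58 in EMT6.5, 0.17 to 0.53 in 4T1.2 and -0.10 to 0.12 in 67NR. In EMT6.5, 8 of the fibroblast genes were higher and 2 lower (40% and 10%), and 11 of 20 neutrophil genes (55%) were lower. Of 16 pericyte and smooth muscle genes, 12 (75%) were lower in the EO771 lines and 5 (31.2%) higher in EMT6.5. Their deviations were -0.42 to -0.39 in EO771.LMB and -0.45 to -0.31 in EO771. They were 0.57 to 0.65 in EMT6.5, 0.12 to 0.19 in 4T1.2 and -0.01 to 0.03 in 67NR. Of 20 endothelial genes, 3 were higher and 9 lower in the EO771 lines (15% and 45%). Of 20 proliferation genes, 16 were higher and 1 lower in the EO771 lines (80% and 5%), and 14 (70%) were higher in EMT6.5. The part of these cells and processes in the differences of the enzymes was not tested.

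Of the cytochromes P450, Cyp1b1 and Cyp2c55 differed most. Cyp1b1, which hydroxylates estradiol and polycyclic hydrocarbons and is found outside the liver, had 6.00, 5.41 and 6.20 in EO771.LMB tumours, 6.49, 6.34 and 5.93 in EO771 tumours, 7.48, 7.39 and 7.11 in EMT6.5 tumours, 10, 10.53 and 9.98 in 4T1.2 tumours and 6.45, 6.37 and 6.20 in 67NR tumours. The 4T1.2 tumours lay above all 12 others, and the difference from 67NR was 3.83 ± 0.21 (adjusted p = 8.9e-09). It was lower in the EO771 lines than in the mean of the BALB/c-grown lines (-1.88 ± 0.14, adjusted p = 3.9e-08), a mean that includes 4T1.2, and the EO771 tumours overlapped with those of 67NR. EMT6.5 lay between 4T1.2 and 67NR, and its difference from their mean (-0.93, adjusted p = 0.0023) was not called with tumour 2 alone (-0.87, adjusted p = 0.093). Its second, dimmer cluster moved the same way in 4T1.2 (0.86, adjusted p = 8.6e-06). The other Cyp1 genes, Cyp1a1 and Cyp1a2, had means below the median cluster, and Cyp1a1 did not pass in any comparison (0.23 in 4T1.2 against 67NR, adjusted p = 0.25).

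Ahr, the receptor named above for the Cyp1 genes, also had its highest signals in 4T1.2 tumours. It had 6.15, 6.17 and 5.79 in EO771.LMB, 6.37, 6.17 and 6.24 in EO771, 9.88, 10.12 and 9.77 in EMT6.5, 10.76, 10.46 and 10.59 in 4T1.2 and 8.0, 7.84 and 7.75 in 67NR. EMT6.5, 4T1.2 and 67NR overlapped neither with each other nor with the EO771 lines. Ahr rose in 4T1.2 against 67NR (2.74, adjusted p = 2.3e-09) and was lower in the EO771 lines (-3.31, adjusted p = 8.3e-13). Its partner Arnt fell in 4T1.2 (-1.07, adjusted p = 1.1e-06). Tiparp, another target of the receptor, differed by 0.05 in 4T1.2 against 67NR (adjusted p = 0.83) and was higher in the EO771 lines (1.06, adjusted p = 8.8e-08), and the repressor Ahrr passed in no comparison. The part of Ahr in the Cyp1b1 signals was not tested.

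Cyp2c55, an arachidonic acid hydroxylase of mouse, was highest in 67NR. It had 5.11, 5.09 and 4.88 in EO771.LMB, 5.05, 4.82 and 4.73 in EO771, 6.30, 6.49 and 6.70 in EMT6.5, 6.38, 6.30 and 6.24 in 4T1.2 and 8.26, 8.52 and 8.08 in 67NR. The 67NR tumours lay above all others and the tumours of the EO771 lines below all others. The difference was -1.98 ± 0.14 for 4T1.2 against 67NR (adjusted p = 1e-07) and -2.08 ± 0.09 for the EO771 lines (adjusted p = 1.1e-10). Cyp2j6, an epoxygenase of fatty acids, also fell in 4T1.2 against 67NR (-1.19 ± 0.17, adjusted p = 0.00016), as did Cyp2d22, Cyp2c44 and Cyp2g1 by 0.32 to 0.58, near the threshold. Cyp2e1, which oxidises ethanol and other small molecules, had 6.21, 6.33 and 6.30 in 4T1.2 and 5.76, 5.36 and 5.62 in 67NR (0.70 ± 0.17, adjusted p = 0.0085). The 45 Cyp2 genes together had 1 higher and 5 lower in 4T1.2 (2.22% and 11.1%, against 8.69% and 9.12% of all clusters). The 7 Cyp3 genes passed in no comparison, with 0 of 7 by the F test as well. In Cyp4, Cyp4b1 was lower in the EO771 lines (-0.51 ± 0.06, adjusted p = 1e-05) and Cyp4v3, a fatty acid omega-hydroxylase, was higher (0.46 ± 0.08, adjusted p = 0.00022). Cyp2f2, known from the Clara cells of mouse lung, was higher in EMT6.5 (6.10, 5.41 and 5.97) than in 4T1.2 (4.65, 4.70 and 4.84) and 67NR (4.81, 4.73 and 4.76). Its difference was 1.08 ± 0.13 with 3 EMT6.5 tumours (adjusted p = 2.7e-05) and 0.67 with tumour 2 alone (adjusted p = 0.0073).

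Several aldehyde dehydrogenases differed between 4T1.2 and 67NR, in both directions. Aldh3a1, an oxidiser of aromatic and lipid aldehydes, had 5.21 to 5.55 in the 9 tumours of EO771.LMB, EO771 and EMT6.5, 6.26, 6.46 and 6.36 in 4T1.2 and 8.99, 8.86 and 8.62 in 67NR. The difference between 4T1.2 and 67NR was -2.46 ± 0.12 (adjusted p = 3.2e-09). Aldh3a2, its relative for fatty aldehydes, went the other way, with 10.99, 11.23 and 11.07 in 4T1.2 and 9.62, 9.62 and 9.62 in 67NR (1.47 ± 0.15, adjusted p = 7e-06), and the 12 tumours outside 4T1.2 lay between 9.18 and 9.77. Aldh1a2, which makes retinoic acid, had 7.08, 6.78 and 7.42 in 4T1.2 and 5.23, 4.77 and 5.27 in 67NR (2.00 ± 0.20, adjusted p = 4.4e-06), and no other tumour exceeded 5.71. Aldh5a1, the succinic semialdehyde dehydrogenase, was higher in 4T1.2 as well (0.89 ± 0.18, adjusted p = 0.0023), as was Aldh7a1 (0.67, adjusted p = 0.0015). Of this family's 19 genes, 4 (21.1%) rose from 67NR to 4T1.2 and 1 (5.26%) fell. Among all clusters, 8.69% rose and 9.12% fell.

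In the EO771 lines 4 of the 19 were higher and 4 lower (21.1% each way, against 18.9% and 19.3% of all clusters). In EMT6.5, 4 were higher and 4 lower (21.1% each way, against 9.59% and 8.33%). Aldh1l2, the mitochondrial 10-formyltetrahydrofolate dehydrogenase, had 7.98, 7.97 and 7.94 in EO771.LMB, 7.60, 7.22 and 7.65 in EO771, 7.20, 7.74 and 7.71 in EMT6.5, 6.25, 6.06 and 5.82 in 4T1.2 and 6.18, 5.88 and 6.26 in 67NR. It was higher in the EO771 lines (1.16 ± 0.11, adjusted p = 6.1e-07) and in EMT6.5 (1.47 ± 0.14, adjusted p = 5.1e-06). Aldh18a1, the first enzyme of proline synthesis, moved likewise (0.70 and 1.14), with type means of 8.39 in EO771.LMB, 8.31 in EO771 and 8.41 in EMT6.5. Aldh6a1, which degrades methylmalonate semialdehyde in valine breakdown, was lower in both (-1.28 ± 0.13 and -1.24 ± 0.17, adjusted p = 1.5e-06 and 0.00015). Aldh1l1 was higher in EMT6.5 (0.72, adjusted p = 0.0012), a call lost with tumour 2 alone (0.63, adjusted p = 0.073).

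Among the aldo-keto reductases, 3 of 3 Akr1b genes were higher in the EO771 lines, while 3 Akr1c genes were lower. A further Akr1c gene, Akr1c21, was higher (0.24, adjusted p = 0.03). That call was lost with EMT6.5 tumour 2 alone, where the difference was 0.26. Akr1b8, an aldose reductase-like enzyme for lipid aldehydes, had 11.48, 11.29 and 11.46 in EO771.LMB, 11.32, 11.34 and 11.41 in EO771, 10.67, 10.54 and 10.66 in EMT6.5, 9.30, 9.09 and 9.16 in 4T1.2 and 9.16, 9.33 and 9.18 in 67NR. The EO771 lines lay above EMT6.5 and EMT6.5 above the other types, with differences of 1.71 ± 0.06 (adjusted p = 2.1e-11) for the EO771 lines and 1.42 ± 0.08 (adjusted p = 2.3e-08) for EMT6.5. Akr1b3, the aldose reductase, followed with 0.62 and 0.72, and all 4 of its clusters moved the same way. Its call in EMT6.5 was lost with tumour 2 alone (0.57, adjusted p = 0.15). Akr1c13, of a subfamily acting on steroids and prostaglandins, had 5.79, 5.53 and 5.35 in EO771.LMB, 5.71, 5.89 and 5.94 in EO771, 6.48, 6.54 and 7.0 in EMT6.5, 8.2, 7.95 and 7.65 in 4T1.2 and 8.08, 8.52 and 8.28 in 67NR. It was lower in the EO771 lines (-1.93 ± 0.11, adjusted p = 4.4e-09) and in EMT6.5 (-1.44 ± 0.15, adjusted p = 1.1e-05). Akr1c12 was lower in the EO771 lines (-1.10 ± 0.16, adjusted p = 6.3e-05) and in 4T1.2 against 67NR (-1.14 ± 0.25, adjusted p = 0.0048). Its lower signal in EMT6.5 (-1.41) was not called with tumour 2 alone (-1.14, adjusted p = 0.055). The Akr1c genes are close copies, so their single values carry the same doubt as those of the mu transferases. Of all 14 aldo-keto reductases, 5 were higher and 4 lower in the EO771 lines (35.7% and 28.6%, against 18.9% and 19.3% of all clusters).

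The 6 genes best known as NRF2 targets all differed among the types, and no type was highest in all of them. Nqo1, the quinone reductase, had 6.68, 6.80 and 6.98 in EO771.LMB, 6.32, 6.52 and 6.34 in EO771, 8.32, 8.30 and 8.58 in EMT6.5, 6.16, 6.09 and 6.17 in 4T1.2 and 5.48, 5.42 and 5.54 in 67NR. EMT6.5 lay above all other tumours, by 2.59 ± 0.09 over 4T1.2 and 67NR (adjusted p = 2.2e-10), and 4T1.2 lay above 67NR (0.66 ± 0.11, adjusted p = 0.00056). Txnrd1, the cytosolic thioredoxin reductase, was highest in EMT6.5 too (0.88 ± 0.12, adjusted p = 9.1e-05). Both kept their call with EMT6.5 tumour 2 alone, at 2.49 and 0.95.

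Glutathione reductase and glutathione synthesis followed another order. Gsr had 10.35, 10.47 and 10.68 in EO771.LMB, 10.54, 10.37 and 10.48 in EO771, 9.80, 9.56 and 9.59 in EMT6.5, 7.82, 7.87 and 7.49 in 4T1.2 and 8.59, 8.10 and 8.25 in 67NR. The EO771 lines were higher by 1.92 ± 0.09 (adjusted p = 4.9e-10), or 3.78-fold, and EMT6.5 stood 1.63 ± 0.12 above 4T1.2 and 67NR (adjusted p = 3.9e-07). Gclc, the catalytic subunit of glutamate-cysteine ligase, had 9.26 to 9.47 in the 6 tumours of the EO771 lines and 8.34 to 8.92 in the 9 others (0.74 ± 0.06, adjusted p = 3.4e-07). Srxn1, which repairs oxidised peroxiredoxins, was higher there as well (0.82 ± 0.11, adjusted p = 2.6e-05). Gclm, the modifier subunit of the ligase, was not (-0.01 ± 0.11, adjusted p = 0.95). In 4T1.2 against 67NR, Gclm (-0.75 ± 0.17, adjusted p = 0.0059), Gsr (-0.58 ± 0.14, adjusted p = 0.01) and Gclc (-0.39 ± 0.10, adjusted p = 0.014) were lower, opposite to Nqo1. The calls of Gsr and Gclc were lost without 67NR tumour 1 (adjusted p = 0.055 and 0.064) and without 4T1.2 tumour 3 (0.051 and 0.053), and that of Gclc also without 67NR tumour 3 (0.061).

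The regulators themselves differed little. Nfe2l2 was bright throughout, with 11.04, 11.13 and 10.75 in EO771.LMB, 11.14, 11.28 and 11.14 in EO771, 10.89, 11.03 and 11.20 in EMT6.5, 11.84, 11.28 and 11.57 in 4T1.2 and 11.18, 11.44 and 11.11 in 67NR. It passed the F test (adjusted p = 0.034) and none of the comparisons, with 0.32 for 4T1.2 against 67NR (adjusted p = 0.18) and -0.20 for the EO771 lines (adjusted p = 0.12). Keap1 was slightly lower in the EO771 lines (-0.20 ± 0.07, adjusted p = 0.037), a call that several alternatives and left-out tumours ended. NRF2 acts mostly through the amount and place of its protein, which arrays do not measure.

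Of 31 other genes listed for NRF2, with transporters, pentose phosphate enzymes and partners, 7 were higher and 9 lower in the EO771 lines. These were 22.6% and 29%, against 18.9% and 19.3% of all clusters. In EMT6.5, 7 were higher and 4 lower (22.6% and 12.9%, against 9.59% and 8.33%). In 4T1.2 against 67NR, 4 were higher and 5 lower (12.9% and 16.1%, against 8.69% and 9.12%). Slc7a11, the cystine importer that feeds glutathione synthesis, had 9.61, 9.25 and 9.46 in 4T1.2 and 5.85, 6.0 and 6.24 in 67NR (3.41, adjusted p = 1.8e-06), and 6.38 to 8.25 in the other tumours. Pir, an iron-binding nuclear protein, had 7.39, 7.46 and 7.79 in EO771.LMB, 7.21, 7.31 and 7.04 in EO771 and 7.91, 7.81 and 8.22 in EMT6.5. It had 5.63, 5.03 and 5.47 in 4T1.2 and 5.45, 5.5 and 5.47 in 67NR. Pir was thus higher in EMT6.5 than in 4T1.2 and 67NR (2.55, adjusted p = 1e-08). The EO771 lines lay above the mean of the BALB/c-grown lines (1.09, adjusted p = 7e-07), but below EMT6.5 in every tumour. The drug exporter Abcc4 was higher in the EO771 lines (2.34, adjusted p = 2e-11) and lower in EMT6.5 (-1.10, adjusted p = 7.8e-06). Hmox1, heme oxygenase and a common NRF2 target, was lower in EMT6.5 (-0.90, adjusted p = 0.0018) and had -0.18 in 4T1.2 against 67NR (adjusted p = 0.61).

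Among the enzymes that remove superoxide and peroxides, Sod2, the manganese enzyme of mitochondria, was higher in the EO771 lines. It had 9.09, 9.20 and 9.35 in EO771.LMB, 9.36, 9.10 and 9.11 in EO771, 7.63, 7.87 and 8.01 in EMT6.5, 8.22, 8.13 and 8.15 in 4T1.2 and 7.94, 8.58 and 8.14 in 67NR. The 6 tumours of the EO771 lines did not overlap with the 9 others (1.13 ± 0.10, adjusted p = 3.1e-07), where 7.77% of all clusters were higher without overlap. The cytosolic Sod1 (-0.28 ± 0.07, adjusted p = 0.0056), the extracellular Sod3 (-0.42 ± 0.13, adjusted p = 0.02) and catalase (Cat, -0.59 ± 0.09, adjusted p = 5.8e-05) were lower there. The call of Sod3 was lost with EMT6.5 tumour 2 alone (-0.30, adjusted p = 0.12), and without EO771.LMB tumour 3 or EO771 tumour 1. Cat was highest in EMT6.5, at 10.05, 10.16 and 9.92, against 9.33, 9.43 and 9.12 in 4T1.2 and 9.25, 9.05 and 9.0 in 67NR (0.85 ± 0.11, adjusted p = 0.00011).

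Glutathione peroxidases were lower in the EO771 lines in 4 of 8 genes and higher in none (50% and 0%, against 19.3% and 18.9% of all clusters). The call of Gpx7 (-0.35) was lost with EMT6.5 tumour 2 alone (-0.23). Gpx3, the secreted form, had 5.95, 5.74 and 6.21 in EO771.LMB, 6.68, 6.09 and 6.5 in EO771, 8.80, 7.34 and 8.22 in EMT6.5, 7.52, 7.53 and 7.17 in 4T1.2 and 7.26, 7.42 and 6.82 in 67NR (-1.37 ± 0.19, adjusted p = 3.3e-05). Its higher signal in EMT6.5 (0.83, adjusted p = 0.032) was largest in tumours 1 and 3, those with the muscle transcripts, and was 0.05 with tumour 2 alone (adjusted p = 0.95). Gpx8, of the endoplasmic reticulum, was lower in the EO771 lines (-0.63 ± 0.06, adjusted p = 2e-06) and in 4T1.2 against 67NR (-0.37 ± 0.10, adjusted p = 0.019). That second call was lost without 67NR tumour 1 (-0.34, adjusted p = 0.072) and without 4T1.2 tumour 3 (-0.33, adjusted p = 0.067). Gpx8's higher signal in EMT6.5 (0.32, adjusted p = 0.02) was 0.24 with tumour 2 alone (adjusted p = 0.4).

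Peroxiredoxins were higher in EMT6.5 in 4 of 6 genes (66.7%, against 9.59% of all clusters). Prdx3, the mitochondrial form, had 9.10, 8.97 and 8.91 in EO771.LMB, 9.21, 9.07 and 9.04 in EO771, 8.78, 8.89 and 9.12 in EMT6.5, 8.18, 8.37 and 7.94 in 4T1.2 and 7.75, 7.88 and 7.82 in 67NR. It was higher in EMT6.5 (0.94 ± 0.11, adjusted p = 2e-05) and in the EO771 lines (0.74 ± 0.08, adjusted p = 2.6e-06). Prdx5 was higher in EMT6.5 (0.48 ± 0.11, adjusted p = 0.0081) and lower in the EO771 lines (-0.65 ± 0.09, adjusted p = 2.1e-05). Prdx4 (0.72) and Prdx6 (0.50) passed in EMT6.5 with 3 tumours but had adjusted p = 0.12 and 0.057 with tumour 2 alone. Prdx1 and Prdx2 passed in no comparison with their brightest cluster, while the dimmer cluster of Prdx2 was lower in 4T1.2 (-0.67, adjusted p = 0.0022) and higher in the EO771 lines (0.56, adjusted p = 8.7e-05).

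**Figure D4:**
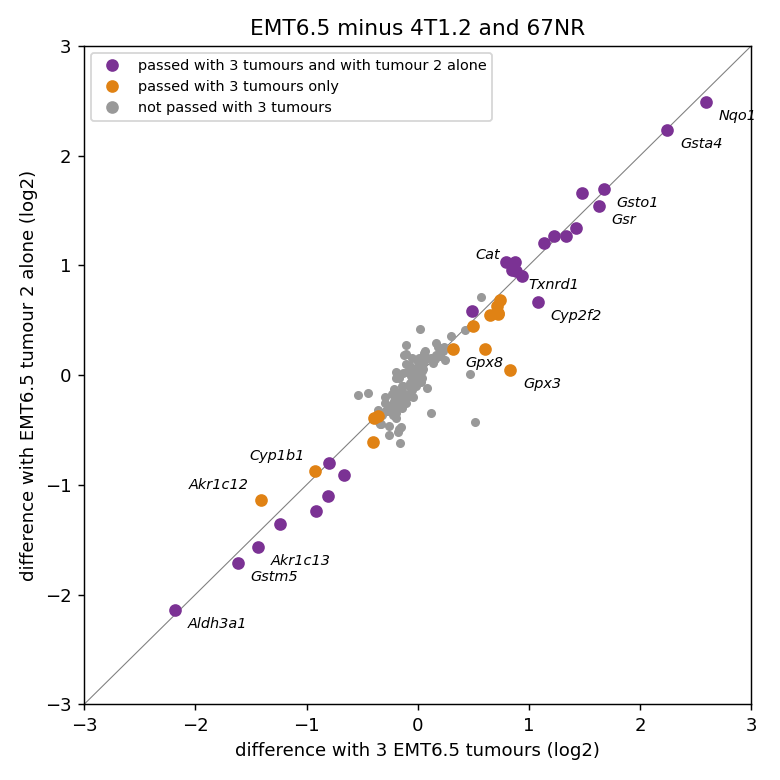
Difference of EMT6.5 from the mean of 4T1.2 and 67NR for the 148 genes, with 3 EMT6.5 tumours (x axis, log2) and with tumour 2 alone (y axis, log2); the line marks equal values, purple genes passed both ways and orange ones only with 3 tumours. Nqo1 and Gsta4 lie near the line at the upper right, whereas Gpx3 drops to 0.05.

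Other glutathione and thioredoxin genes moved with these enzymes in part. Of 27 further glutathione genes, 9 were higher and 7 lower in the EO771 lines (33.3% and 25.9%, against 18.9% and 19.3% of all clusters). Among the higher were Ggct, which degrades gamma-glutamyl peptides (1.74, adjusted p = 6.4e-10), and the glutaredoxin Glrx (1.26, adjusted p = 8.1e-06). In EMT6.5, 5 were higher and 0 lower (18.5% and 0%, against 9.59% and 8.33%). At an unadjusted p under 0.05, 10 were higher and 2 lower, against 14.7% and 14% of all clusters. Of 22 further thioredoxin and selenoprotein genes, 5 were higher and 8 lower in the EO771 lines (22.7% and 36.4%, against 18.9% and 19.3% of all clusters). Sesn3, a stress-induced regulator, differed by -3.90 (adjusted p = 1.4e-12), and the selenium carrier Sepp1 by -2.78 (adjusted p = 1.1e-10). Of 33 further conjugation genes, 1 was higher and 6 lower in 4T1.2 against 67NR (3.03% and 18.2%, against 8.69% and 9.12% of all clusters). Ephx1, the microsomal epoxide hydrolase, had 6.77, 6.48 and 6.9 in 4T1.2 and 10.34, 10.41 and 10.12 in 67NR, a difference of -3.57 (adjusted p = 2.5e-09). Inmt, an amine methyltransferase, differed by -2.86 (adjusted p = 4.6e-07), with 67NR alone above 8. Of 25 genes that make oxidants or oxidised lipids, 4 were higher and 11 lower in the EO771 lines (16% and 44%, against 18.9% and 19.3% of all clusters). Among the lower were Ptgs2 at -3.21 (adjusted p = 6.3e-11) and aldehyde oxidase Aox1 at -2.80 (adjusted p = 6.5e-12).

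Between EO771.LMB and EO771 no enzyme gene passed limma's adjusted p, none did by one-way analysis of variance or with an intensity trend and robust prior, and at an unadjusted p under 0.05, 9 were higher and 10 lower, against 3.91% and 4.39% of clusters. The genes with the smallest unadjusted p were Nqo1 (6.68, 6.80 and 6.98 in EO771.LMB against 6.32, 6.52 and 6.34 in EO771, 0.43 ± 0.11, adjusted p = 0.23), Cyp2a12 (0.42 ± 0.14, adjusted p = 0.41) and Aldh1l2 (0.47 ± 0.17, adjusted p = 0.45) among the higher, and Cyp2e1 (5.33, 5.26 and 5.26 in EO771.LMB against 5.72, 6.07 and 6.10 in EO771, -0.68 ± 0.17, adjusted p = 0.22), Gstm1 (-0.73 ± 0.20, adjusted p = 0.31) and Cyp2f2 (-0.40 ± 0.14, adjusted p = 0.46) among the lower. In Gstm1 the types overlapped. In the others the tumours of the 2 lines did not, which held for 7.8% of all clusters upward and 6.89% downward. Host cell lists differed in this pair too. Adipocyte deviations were -0.49 to -0.15 in EO771.LMB and 0.19 to 0.30 in EO771. Endothelial deviations were -0.35 to -0.28 and -0.03 to 0.09. At limma's unadjusted p under 0.05, 8 of 20 adipocyte genes and 7 of 20 endothelial genes were lower, and 0 were higher. Their part in the enzymes' signals was not tested.

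The changes in the 2 metastatic pairs were then set against each other. The change from the partner differed between the pairs in 14 members, 7 higher and 7 lower in the 4T1 pair, against 4.9% of clusters higher and 5.28% lower. For Cyp1b1 it was 3.83 in 4T1.2 against 67NR and -0.39 in EO771.LMB against EO771, and for Gstm1 it was -2.31 and -0.73. Of 20 neutrophil genes, 11 (55%, against 8.69% of all clusters) were higher in 4T1.2 than in 67NR and moved with the first pair. The list's deviations were 0.43 to 0.70 in 4T1.2 and -0.44 to -0.31 in 67NR. Hypoxia genes were higher in 10 of 20 (50%), with deviations of 0.14 to 0.43 in 4T1.2 and -0.46 to -0.34 in 67NR. Epithelial markers passed upward in this pair in 6 of 20 (30%, against 8.69% of all clusters), with deviations of 0.20 to 0.32 in 4T1.2 and -0.25 to -0.16 in 67NR, and Krt18 differed by 3.78 (adjusted p = 1.2e-08). Of 20 fibroblast genes, 6 were higher and 1 lower (30% and 5%), and of 20 T and NK cell genes, 6 were lower (30%, against 9.12% of all clusters). Their part in the enzymes' changes was not tested.

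**Figure D5:**
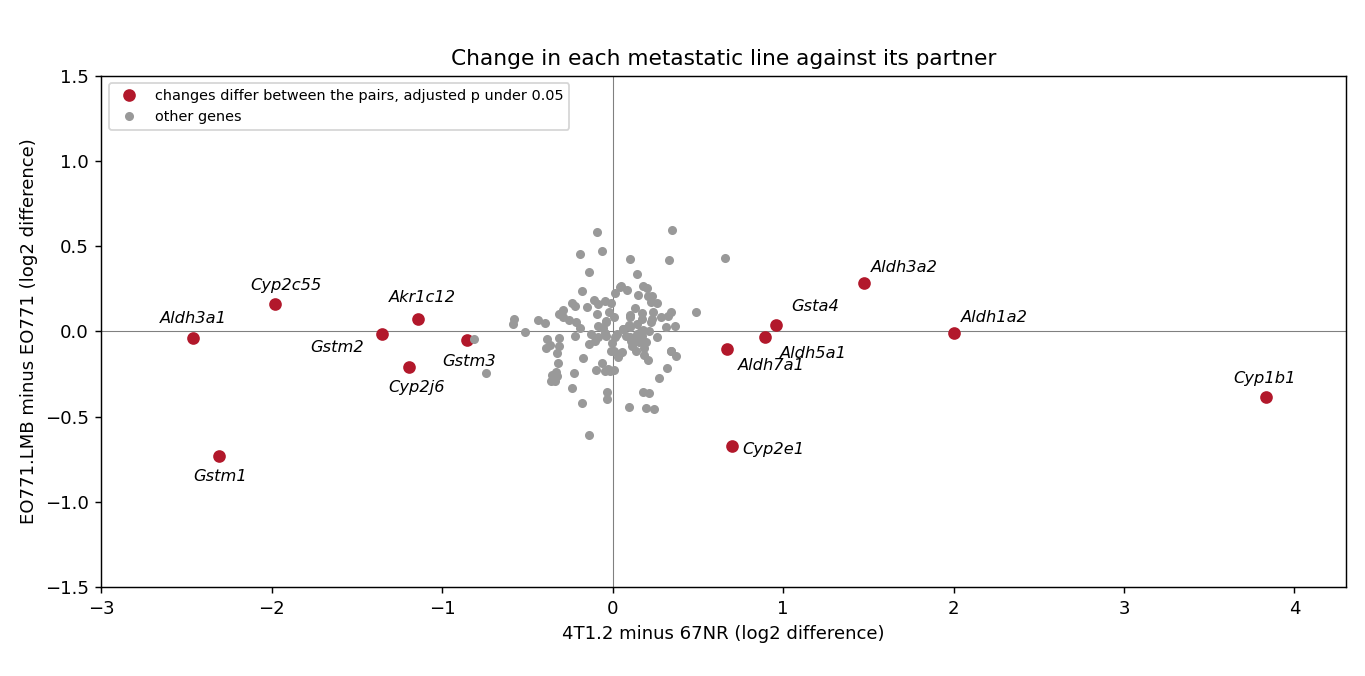
Log2 difference of 4T1.2 from 67NR (x axis) and of EO771.LMB from EO771 (y axis) for the 148 genes (points); red points are the 14 genes whose changes differed between the pairs. The red points spread from -2.46 to 3.83 along the x axis and from -0.73 to 0.28 along the y axis.

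Within types, the spread between tumours had a median SD of 0.21 over the 148 genes and 0.18 over all clusters. The most variable gene was Cyp3a57, with an SD of 0.559 and a range of 2.14 within EMT6.5. Aldh1a1 was high in the same EMT6.5 tumours as the muscle transcripts, with 6.94, 5.52 and 6.92 in tumours 1, 2 and 3 against 5.54 to 6.16 in all other tumours.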

How the data were processed

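Values for 35556 transcript clusters were deposited as log2 signals, after the authors had adjusted background, normalized by quantiles and summarized probes by median polish. The methods name GCRMA and the submitters' processing notes Partek 6.6 and RMA, so which made the values is not settled, and the genome build behind the clusters is not given in the sources used here. The series table and the workbook sheet were identical (0 of 533340 values differed). A further 30 per-sample columns, in sheets that hold few clusters, were not used. Array medians were 6.32 to 6.44.

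Each tumour carries a mouse number in the labels and counts as 1 animal. With 3 arrays per type, the number of arrays limits the precision. One linear model with tumour type as its only term was fitted to all clusters and 15 tumours (R 4.3.3, limma 3.58.1). Within each comparison, limma's p-values were corrected after Benjamini and Hochberg across the whole table, and an adjusted p under 0.05 was called. The steps were tested on simulated data.

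Symbols are those of the files. Of the 148 genes, 144 had their accession in RefSeq, 142 under the same symbol, while Akr1a4 is now Akr1a1 and Cyp2c44 is Cyp2c23. The members, and the lists of pathway genes (other cytochromes, receptors, conjugation, NRF2, glutathione, thioredoxin, oxidants, retinoids), cell type markers, hypoxia and proliferation genes, were chosen with earlier results of these data known. For a list's deviation, each gene's difference from its 15-tumour mean was averaged over the list. Genes named are the 12 that the rule gives by name, the 6 with the largest difference per comparison and direction among those that passed (or the 3 with the smallest p where none did), the 2 with the smallest F p-value per family, up to 4 called genes per other list and comparison, and defining cell type markers. Others were named after their values were seen to describe a family or a disagreement between clusters.

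Tumours with the same number did not deviate together (mean correlation of residuals 0.02, range -0.17 to 0.15), so the numbers were not taken as pairs. Alternatives were the series table, arrays centred on medians, renewed quantile normalization, a filter that keeps clusters above the median, the mean of a gene's clusters, one-way analysis of variance, an intensity trend with a robust prior, an unadjusted p, the tumour number as a block, only the groups compared, and each tumour left out. EMT6.5 by tumour 2 alone was added after seeing the data.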

Additional observations from a re-analysis of the deposited data

Results flagged for a closer look

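Of the 16 genes named for the metastatic pairs, 12 had a change in 4T1.2 against 67NR that differed from that in EO771.LMB against EO771 by a test of the difference itself (limma, adjusted p under 0.05), where 4.9% of all clusters were higher and 5.28% lower. All 12 had been named for the size of their change in 4T1.2 against 67NR, and no member passed in the EO771 pair, so this count is largely fixed by that choice. The difference between the changes, 4T1 pair minus EO771 pair, was positive for Cyp1b1 (4.22 on the log2 scale, adjusted p = 3.3e-07), Aldh1a2 (2.01), Cyp2e1 (1.37), Aldh3a2 (1.19), Aldh5a1 (0.93) and Gsta4 (0.92). It was negative for Aldh3a1 (-2.43, adjusted p = 3.8e-07), Cyp2c55 (-2.14), Gstm1 (-1.58), Gstm2 (-1.34), Akr1c12 (-1.22, adjusted p = 0.04) and Cyp2j6 (-0.98). Cyp2e1 went up in the 4T1 pair (0.70) and had -0.68 in the EO771 pair, where it did not pass alone. Most of these genes had a change near 0 in the EO771 pair.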

How the results depend on the processing

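Counts of enzyme genes kept within 1.5 times of their value under most alternatives. With only clusters above the median signal, which leaves 48 of the genes, 18 were lower in the EO771 lines, 8 lower in EMT6.5 and 41 differed among the types. At an unadjusted p under 0.05, 4T1.2 had 14 higher and 24 lower, EO771.LMB had 9 higher and 10 lower, and 14 and 15 had a change higher and lower in the 4T1 pair than in the EO771 pair. With only the groups compared in the fit, 8 were lower in 4T1.2. With EMT6.5 by tumour 2 alone, chosen after seeing the data, 16 were higher and 8 lower in EMT6.5. The cause of these shifts beyond the fewer genes or tumours was not tested.

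Leaving out 1 tumour at a time gave 8 to 12 genes higher and 8 to 14 lower in 4T1.2, with 8 lower without 67NR tumour 1 and without 4T1.2 tumour 3, and 10 without 67NR tumour 3. It gave 0 to 0 in EO771.LMB against EO771 in both directions, 23 to 26 higher and 29 to 35 lower in the EO771 lines, 21 to 27 higher and 9 to 15 lower in EMT6.5, 6 to 9 in each direction for the difference between the pairs, and 57 to 65 differing among the types. With the tumour number as a replicate block, counts were 8 higher and 14 lower for 4T1.2, 0 and 0 for EO771.LMB, 23 and 31 for the EO771 lines, 25 and 13 for EMT6.5, 7 and 7 between the pairs, and 63 differed. The tumours share only a number, so this block pairs no samples. Of 1946 values of named genes under alternatives, 1865 were unchanged in call, 81 lost their call and 0 changed sign. Most losses were of Cyp4v3 in 4T1.2 and of Gsto1 and Keap1 in the EO771 lines. The 1865 include the series table, whose values are identical and could not differ. They also include genes named for EO771.LMB against EO771, which had no call to lose. No background values were at hand, so signals near 5 bound what dim genes can show.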

Other observations

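Genes of retinoid transport and metabolism, the pathway in which Aldh1a2 acts, differed among the types in 18 of 20 (90%). This stood against 43.1% of all clusters and 63.3% of those above the median signal. The list was chosen with earlier results of these data known, so these shares are no test of the pathway. In 4T1.2 against 67NR 10 were higher and 3 lower (50% and 15%, against 8.69% and 9.12%), and in the EO771 lines 6 were higher and 11 lower (30% and 55%, against 18.9% and 19.3%). Crabp2, which carries retinoic acid, was above 11 in the 3 EMT6.5 tumours and at most 7.02 in the 12 others (4.69 in EMT6.5, adjusted p = 5.6e-10). Rbp4 was higher in the EO771 lines (2.95, adjusted p = 2e-10), and Rdh10, which oxidises retinol, was lower (-2.65, adjusted p = 7.9e-11).

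Among the hypoxia genes, Egln3, an oxygen-sensing prolyl hydroxylase, had 7.38, 7.48 and 7.1 in EMT6.5 tumours and at least 9.9 in the 12 others. It was lower in EMT6.5 (-3.81, adjusted p = 5.4e-11) and higher in 4T1.2 than in 67NR (2.18, adjusted p = 2.4e-08). Proliferation genes were higher in the EO771 lines in 16 of 20 (80%, against 18.9% of all clusters), with Mki67 as the 1 that was lower (-0.98, adjusted p = 1.5e-07).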
